A study of Mus musculus with 4 samples.

Results

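The 44 genes described here copy DNA or govern the step from G1 into S phase. They were taken by name: a probe belonged to a member when its gene name, or the current symbol of its accession, was on the list. All 44 were found, on 62 probes, among 27593 genes on the array, and each gene was represented by its brightest probe. The probe was well above background on all 4 arrays for 43 of the 44, and for Ccne2 it was not so in naive T cells.

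RNA of CD4+ T cells from spleen and lymph nodes of Balb/C mice was measured on 4 one-colour Agilent expression arrays, 1 per group. Natural regulatory T cells (Treg, CD4+CD25+) had been enriched on magnetic beads, transduced with a lentivirus carrying a short hairpin RNA and GFP, held in medium with human IL-2 for 60 h and sorted for GFP. One such sample is labelled si-Eos, for a hairpin against Eos (the zinc-finger protein made by Ikzf4), and one si-RL, for a hairpin against Renilla luciferase, the control. The other 2 samples were freshly isolated and untransduced: Treg and naive T cells (CD4+CD25-CD62Lhi). The sources used here give no number of mice or hairpins, and no age. Culture, transduction and the GFP sort go with both hairpin samples and cannot be told apart in them. With 1 array per group no test was possible. Each difference compares 2 libraries, and ± is the scanner's error of the spots, which leaves out any spread between samples.

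Replication starts from origins that are licensed in G1, when Cdc6 and Cdt1 load the ring-shaped MCM helicase onto DNA. Cyclin E with its kinase and the E2F transcription factors then carry the cell into S phase, where Cdc45 and the GINS complex switch the helicase on and the polymerases, clamp and ligase copy both strands. Most of these genes are E2F targets, low in resting cells. Naive T cells are quiescent and turn the programme on when they are activated, whereas some Treg cycle in the resting animal.

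The labels and the cells were checked first. The level used throughout is a probe's processed signal divided by the 75th percentile of its own array, so a level of 1 equals that percentile. Ikzf4 had a level of 0.779 in the si-Eos-labelled library, 0.409 in the si-RL-labelled library, 0.926 in Treg and 0.636 in naive T cells. The gene targeted by the hairpin was thus higher in the library that carries its label, and both its other probes pointed the same way. The hairpin libraries are therefore called by their labels, and with labels swapped each sign between them would turn. Against Treg the Ikzf4 probes disagreed: the si-Eos-labelled library differed by -0.25 on the probe used but by 0.69 and 0.52 on the others. Foxp3, the transcription factor that defines Treg, had levels of 8.26 (si-Eos), 0.420 (si-RL), 4.54 (Treg) and 0.213 (naive). All 6 T cell markers were well above background on every array. Their summed level ranged from 137 in the si-RL-labelled library to 224 in naive T cells. The 6 Treg markers summed to 322 in the si-Eos-labelled library, 120 in the si-RL-labelled library, 147 in Treg and 27.4 in naive T cells. Most of each sum was Tnfrsf18, with levels of 237 (si-Eos), 109 (si-RL), 81.7 (Treg) and 24.1 (naive). Singly, 4 of the 6 were at least 2-fold lower in the si-RL-labelled library than in Treg, and 2 were higher by less than 2-fold. The 5 naive T cell markers summed to 45.7 (si-Eos), 136 (si-RL), 58.5 (Treg) and 164 (naive). B cell, myeloid, CD8 and NK, and erythroid markers summed to between 0.137 and 4.01 on every array. Plasma cell markers summed to 0.148 and 0.136 in the si-Eos-labelled and si-RL-labelled libraries, against 22.9 in Treg and 23.4 in naive T cells, nearly all of it Jchain. In such bulk RNA, fewer cycling cells and less of these mRNAs per cycling cell cannot be told apart.

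Promoters are shown because E2F sites are the element these genes are known to share. RefSeq (GRCm38.p6) gave a window from 250 bases before to 50 bases after the start for 37 of the 44 members. An E2F-type motif was searched on both strands as any of the letters TTTCCCGC, TTTGGCGC, TTTCGCGC or TTTGCCGC, and matches could overlap each other, as they do in Mcm5 and Mcm6. At least 1 motif stood in the windows of 14 of 37 members (37.8%), against 2.60% of all 27025 genes with a window and 1 of 28 mitosis genes (3.57%). The 14 are Mcm3, Mcm5, Mcm6, Mcm7, Cdc6, Cdt1, Gins3, Pola1, Pold1, Pole2, Rfc3, Lig1, Uhrf1 and E2f2. The windows below belong to the 2 members most above and the 2 most below 0 between the hairpin libraries, for which a window was given. Each reads 5′ to 3′ on the gene's strand, with capitals marking the motif on either strand.

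Rfc3, chr5:151651159-151651458, minus strand: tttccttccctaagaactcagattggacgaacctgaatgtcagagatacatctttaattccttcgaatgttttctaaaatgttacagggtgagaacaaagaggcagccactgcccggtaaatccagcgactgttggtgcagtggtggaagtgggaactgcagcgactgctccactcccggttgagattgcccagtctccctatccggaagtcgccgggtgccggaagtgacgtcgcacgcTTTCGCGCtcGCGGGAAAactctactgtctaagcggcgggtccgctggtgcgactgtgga
Chaf1a, chr17:56040166-56040465, plus strand: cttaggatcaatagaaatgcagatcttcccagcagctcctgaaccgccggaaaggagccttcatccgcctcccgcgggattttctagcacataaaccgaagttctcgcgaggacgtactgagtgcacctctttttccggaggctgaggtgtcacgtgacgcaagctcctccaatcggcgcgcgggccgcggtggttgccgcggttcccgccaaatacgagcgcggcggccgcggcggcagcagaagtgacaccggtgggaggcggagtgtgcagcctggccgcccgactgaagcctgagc
E2f2, chr4:136172024-136172323, plus strand: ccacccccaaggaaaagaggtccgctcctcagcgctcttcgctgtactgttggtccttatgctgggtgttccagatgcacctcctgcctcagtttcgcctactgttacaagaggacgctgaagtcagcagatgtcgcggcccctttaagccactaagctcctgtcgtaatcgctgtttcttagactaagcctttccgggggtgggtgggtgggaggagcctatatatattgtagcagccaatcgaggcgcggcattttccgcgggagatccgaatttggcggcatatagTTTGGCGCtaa
Pola1, chrX:93632106-93632405, minus strand: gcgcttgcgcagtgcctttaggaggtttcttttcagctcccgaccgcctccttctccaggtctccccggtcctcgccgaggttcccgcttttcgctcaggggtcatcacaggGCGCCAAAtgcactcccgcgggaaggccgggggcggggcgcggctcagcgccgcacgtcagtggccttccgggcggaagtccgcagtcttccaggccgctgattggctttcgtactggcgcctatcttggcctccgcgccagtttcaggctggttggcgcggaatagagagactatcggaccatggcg

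The motif stood in windows of members on both sides. Rfc3 carries 2, at -10 and 0 bases from the start, E2f2 carries 1 at 39 and Pola1 carries 1 at -138. The Chaf1a window holds no exact match to these letters. Near matches were not searched for, so a window without a motif may still hold one. The median log2 difference between the si-Eos-labelled and si-RL-labelled libraries was 0.90 for the 14 members with a motif and 0.89 for the 23 without. Between Treg and naive T cells these medians were 0.84 and 0.64. E2f2 has a second window in the table, which holds no motif.

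Between the hairpin libraries, replication genes were mostly higher in the si-Eos-labelled library. Of 44 members, 17 (38.6%) were at least 2-fold higher there, against 10.7% of the 17082 genes measured on both arrays. None was 2-fold lower, against 10.1% of all genes. The members' median log2 difference was 0.89, beside 0.04 for all measured genes, and 37 of 44 lay above 0. The 17 include the helicase subunit Mcm5, the helicase activators Mcm10, Cdc45, Gins1 and Gins2, the clamp Pcna and its loader subunit Rfc3. They also include the flap nuclease Fen1 and the ligase Lig1, which finish Okazaki fragments. Below 0 were E2f2, Pola1, Pola2, Pole2, Gins3, Rpa3 and Rrm2. The median lay between 0.79 and 0.92 under every scaling and background correction tried. Treg markers went with this difference, 6 of 6 being at least 2-fold higher in the si-Eos-labelled library, and naive T cell markers went against it, 4 of 5 being at least 2-fold lower while Ccr7 was higher by 1.49. Their part in the result was not tested.

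Against Treg, replication genes in the si-Eos-labelled library were a little higher. Their median log2 difference was 0.41, beside 0.06 for all measured genes, and 37 of 44 lay above 0. Only Cdc45, Rfc3, Lig1, Chaf1a and Ccne2 were at least 2-fold higher (5 of 44, 11.4%, against 8.85% of 17897 genes), a share near that of all genes. None was 2-fold lower, against 10.0% of all genes. With arrays scaled to their spike-in controls the median was 0.01 and that of all genes -0.34. With normexp background correction these medians were 0.72 and -0.36, and 8 of 44 members were at least 2-fold higher, against 8.10% of all genes. Of the Treg markers 2 of 6 were at least 2-fold higher, and of the naive T cell markers 3 of 5 lower, in this library than in Treg, and their part in the result was not tested.

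In the si-RL-labelled library, most replication genes were below Treg. The median log2 difference was -0.50, beside -0.01 for all measured genes, and 33 of 44 lay below 0. At least 2-fold lower were 9 members (20.5%, against 8.21% of 17082 genes): Mcm5, Gins1, Pold2, Pcna, Rfc3, Fen1, Lig1, Tyms and Chaf1a. At least 2-fold higher were Pola2, Rrm2 and Ccne2 (3 of 44, 6.82%, against 7.89% of all genes). With spike-in scaling these counts were 13 lower and 1 higher, against 16.1% of all genes lower and 683 of 17082 higher. With normexp background correction they were 2 lower and 3 higher, against 26.2% and 5.62% of all genes, and the median of -0.09 then lay 0.22 above that of all genes, so relative to all genes the direction turned. T cell markers were also lower in the si-RL-labelled library, with 5 of 6 below 0 and a median of -0.97, 4 of 6 Treg markers were at least 2-fold lower, and 3 of 5 naive T cell markers at least 2-fold higher. Their part in the result was not tested. This comparison and the 2 preceding ones share arrays, so their values are not independent.

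Fresh Treg exceeded naive T cells in replication genes, a comparison that rests on neither hairpin library. Of the 43 members measured on both arrays, 16 (37.2%) were at least 2-fold higher in Treg, against 5.51% of 17595 genes, and none was 2-fold lower, against 2.04%. The median log2 difference was 0.76, beside -0.02 for all measured genes, and 39 of 43 lay above 0. Nucleotide supply genes stood out by size, with 4 of 5 at least 2-fold higher and a median of 2.23, as did helicase activation genes, with 4 of 5 and a median of 1.70, and chromatin genes, with 2 of 3 and a median of 2.52. Clamp and loader genes had 0 of 6 at 2-fold and a median of 0.42. The members' median was 0.55 with median scaling and 1.02 with spike-in scaling, at the same distance of 0.78 from all genes. With normexp background correction it was 0.40, only 0.19 above all genes, with 11 of 43 members at 2-fold against 10.8% of all genes.

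**Figure D1:**
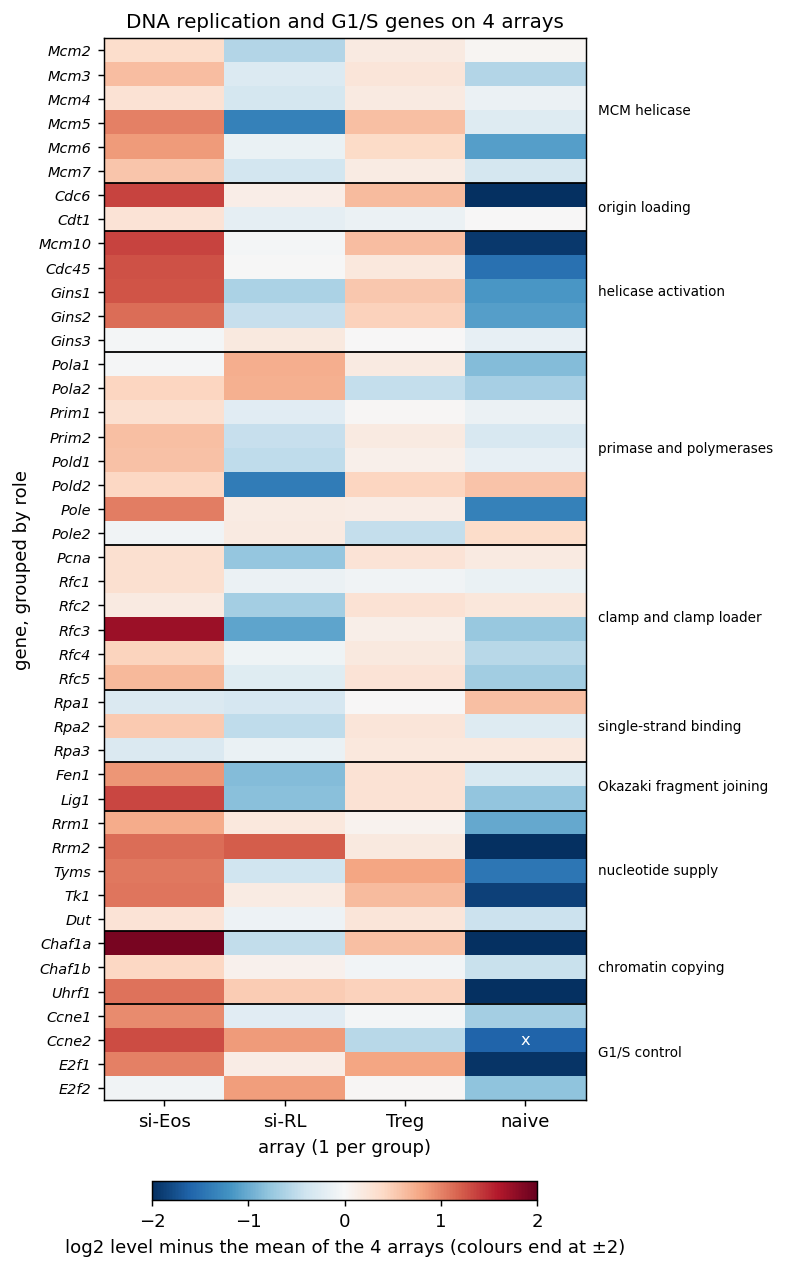
Log2 level of each of the 44 genes (rows, grouped by role) on the 4 arrays (columns), as the difference from the gene's mean over the arrays (blue below, red above, colours end at ±2). The cross marks Ccne2 in naive T cells, where its probe was not well above background. The si-Eos column was the highest of the 4 for 33 of the 43 genes measured on all arrays, and the naive column was the lowest for 25.

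Among the 43 members well above background on all arrays, the si-Eos-labelled library had the highest level for 33, the si-RL-labelled library for 5, Treg for 2 and naive T cells for 3. The lowest level was in naive T cells for 25 members and in the si-RL-labelled library for 16. The si-RL-labelled library lay between Treg and naive T cells for 17 members (39.5%), below both for 17 and above both for 9 (20.9%). Among all 16449 genes above background on every array, the si-Eos-labelled library was highest for 33.1%, naive T cells were lowest for 24.4% and the si-RL-labelled library for 29.95%. The si-RL-labelled library lay between Treg and naive T cells for 19.8% of all genes, below both for 41.3%, close to the share of members, and above both for 38.9%.

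All 6 MCM helicase genes were higher in the si-Eos-labelled than in the si-RL-labelled library under every setting tried, but not by the same amount. Mcm5 (probe on chromosome 8, 78023523 to 78023583, mm8) had a level of 10.1 in the si-Eos-labelled library, 1.99 in the si-RL-labelled library, 7.64 in Treg and 4.24 in naive T cells. The si-RL-labelled library was the lowest of the 4, below naive T cells as well. The log2 difference was 2.35 ± 0.20 between the si-Eos-labelled and si-RL-labelled libraries and -1.94 ± 0.20 between the si-RL-labelled library and Treg. The other 5 subunits, which sit in the same ring, differed by less: Mcm2, Mcm3, Mcm4, Mcm6 and Mcm7 lay between 0.64 and 0.98 for the first of these differences and between -0.77 and -0.50 for the second. Mcm6 was the subunit with the widest gap between Treg and naive T cells. Its levels were 30.0 (si-Eos), 15.2 (si-RL), 21.6 (Treg) and 7.76 (naive), a log2 difference of 1.47 ± 0.20 between Treg and naive T cells, while Mcm2 differed there by 0.15 ± 0.20, which turned to -0.06 under median scaling and -0.22 under normexp. For Mcm4 that difference was -0.18 under normexp. Mcm3 and Mcm4 turned to 0.08 and 0.11 against Treg in the si-RL-labelled library under normexp, and Mcm2, Mcm3, Mcm4 and Mcm7 to between -0.27 and -0.01 against Treg in the si-Eos-labelled library under spike-in scaling. The second probe of Mcm4, dim and above background only in Treg and naive T cells, read -0.39 there against 0.30 on the probe used.

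The loaders of the helicase parted from each other. Cdc6 (chromosome 11, 98737349 to 98737408) had levels of 0.799 (si-Eos), 0.344 (si-RL), 0.490 (Treg) and 0.0728 (naive). Naive T cells were the lowest by far, and the log2 difference between Treg and naive T cells was 2.75 ± 0.24. A second Cdc6 probe read 0.82 between the si-RL-labelled library and Treg, where the probe used read -0.51, so this direction is uncertain. Between the si-Eos-labelled and si-RL-labelled libraries the second probe read 0.18, against 1.21 on the probe used. Its partner Cdt1 had levels of 15.4 (si-Eos), 11.3 (si-RL), 11.8 (Treg) and 12.9 (naive). No pair of arrays was 2-fold apart for Cdt1 in the 4 comparisons, whose log2 differences lay between -0.13 and 0.45.

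Of the genes that switch the helicase on, 4 of 5 shared the same order of arrays. Mcm10, which helps the loaded helicase to start, had levels of 3.18 (si-Eos), 1.20 (si-RL), 1.89 (Treg) and 0.326 (naive). Gins1, a GINS subunit, had levels of 1.45 (si-Eos), 0.394 (si-RL), 0.881 (Treg) and 0.272 (naive). In both genes the order ran si-Eos, Treg, si-RL, naive. Mcm10, Cdc45, Gins1 and Gins2 exceeded naive T cells in Treg by log2 differences between 1.56 and 2.54, and higher in the si-Eos-labelled library than in the si-RL-labelled library by 1.28 to 1.88. Both Gins1 probes were at least 2-fold higher in these 2 comparisons. Gins3, another subunit of the same complex, stood apart: its levels were 0.468 (si-Eos), 0.551 (si-RL), 0.481 (Treg) and 0.426 (naive), and its differences lay between -0.23 and 0.19.

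Polymerase genes split by subunit. Pold2, the small subunit of polymerase δ, which copies the lagging strand, had levels of 0.705 (si-Eos), 0.201 (si-RL), 0.716 (Treg) and 0.786 (naive). The si-RL-labelled library stood alone below 3 similar values, with a log2 difference of -1.84 ± 0.21 from Treg. The catalytic subunit gene Pold1 had levels of 5.95 (si-Eos), 2.79 (si-RL), 4.24 (Treg) and 3.54 (naive), with the si-RL-labelled library again the lowest. Pole, the catalytic subunit of the leading-strand polymerase ε, followed another order, with 3.89 (si-Eos), 2.14 (si-RL), 2.12 (Treg) and 0.749 (naive), with naive T cells the lowest. Its partner Pole2 had 0.835 (si-Eos), 0.988 (si-RL), 0.629 (Treg) and 1.13 (naive), with naive T cells the highest. Pola1 and Pola2 encode the large subunits of polymerase α, which makes the primers together with primase, and on the probes used both were highest in the si-RL-labelled library. Pola1 had 0.774 (si-Eos), 1.30 (si-RL), 0.896 (Treg) and 0.431 (naive), and Pola2 had 6.74 (si-Eos), 8.22 (si-RL), 3.62 (Treg) and 3.16 (naive). For Pola2 a second, dim probe read 0.29 between the si-RL-labelled library and Treg, against 1.18 on the probe used, and 0.09 between the si-Eos-labelled and si-RL-labelled libraries, against -0.29, so that direction is uncertain. The primase genes Prim1 and Prim2 followed the MCM genes, higher in the si-Eos-labelled library than in the si-RL-labelled library by 0.55 ± 0.20 and 1.05 ± 0.21.

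**Figure D2:**
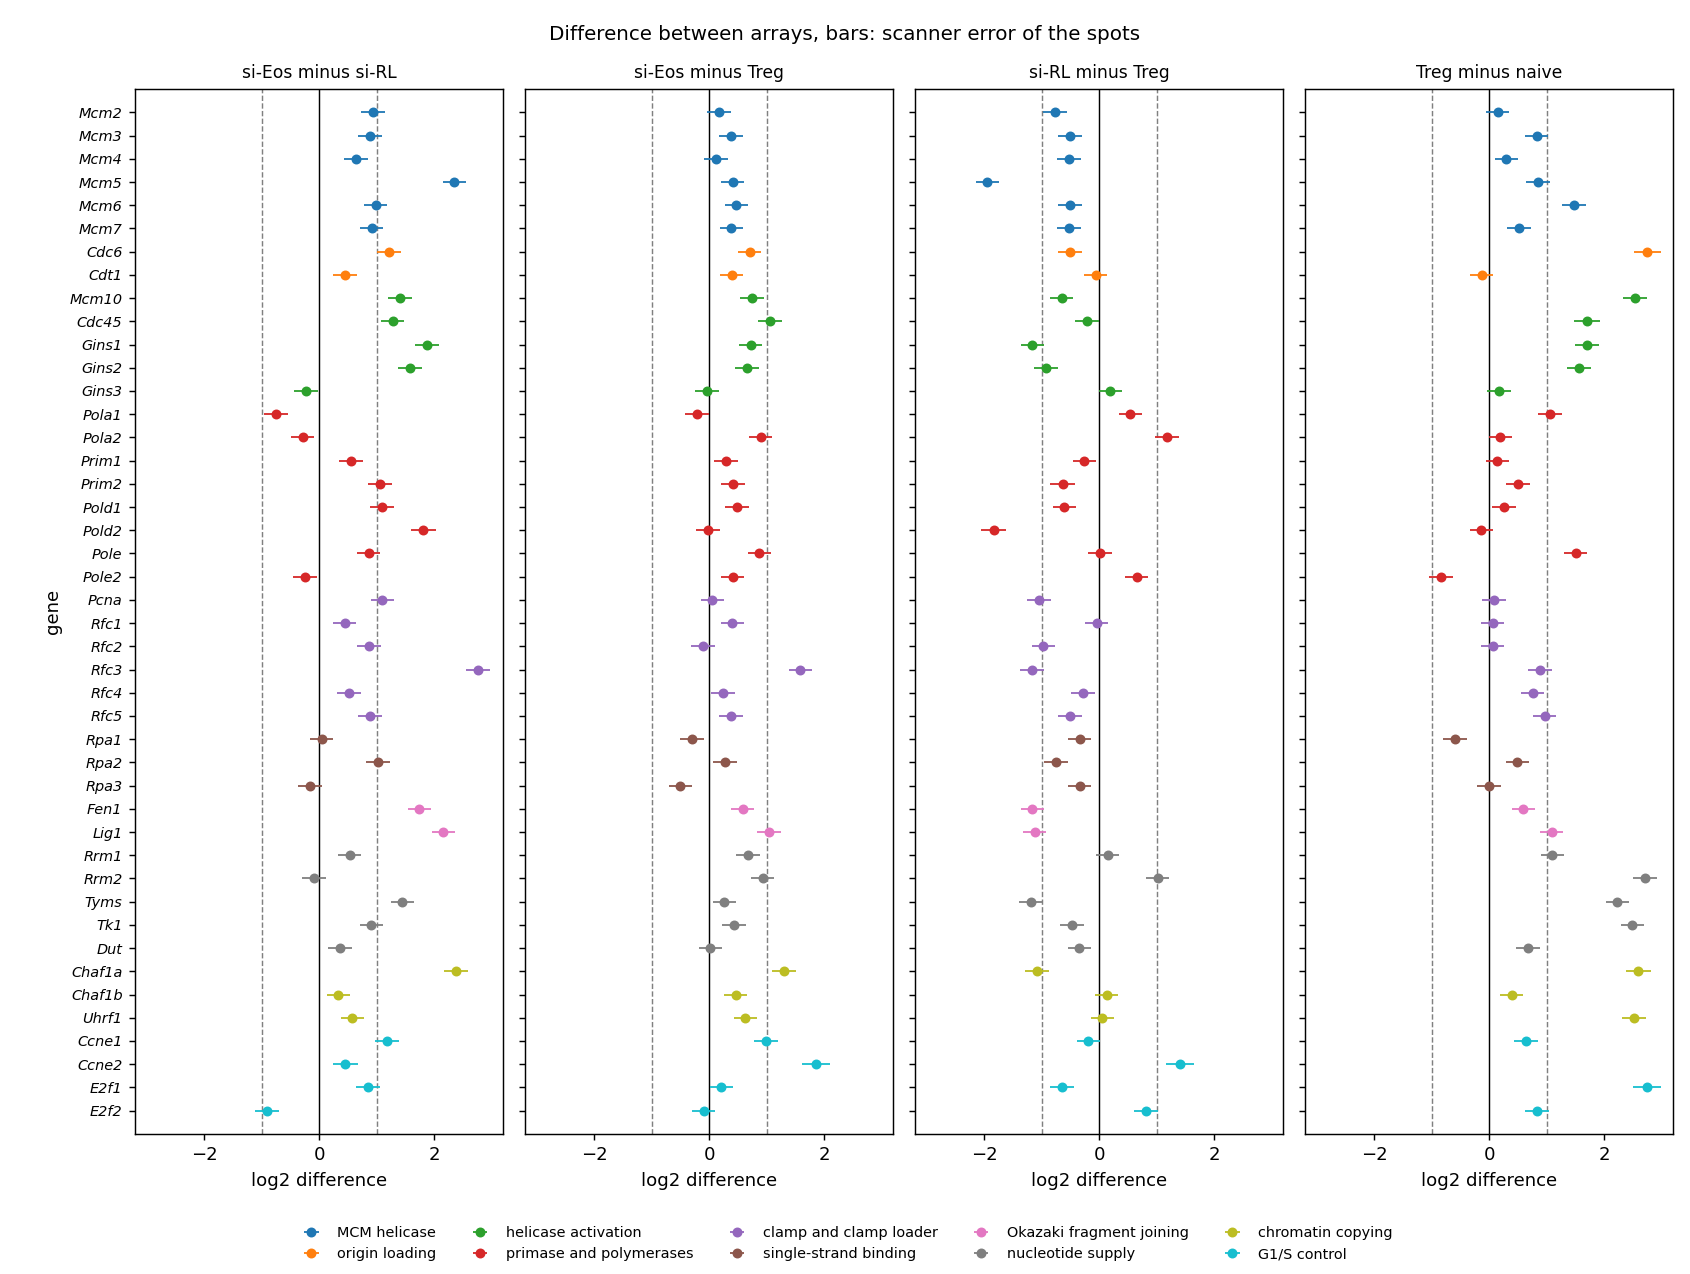
Log2 difference (horizontal axis) of each gene (rows, coloured by role) in 4 comparisons, with the scanner's spot error as bars and dashed lines at 2-fold. Ccne2 has no point for Treg minus naive. Points of the first panel lie mostly right of 0 (37 of 44), those of si-RL minus Treg mostly left (33 of 44).

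Of the clamp and loader genes, Pcna, Rfc1, Rfc2 and Rfc3 differed more between the hairpin libraries than between Treg and naive T cells, and Rfc4 and Rfc5 did not. Pcna, the ring that holds polymerases on DNA, had levels of 32.9 (si-Eos), 15.3 (si-RL), 31.7 (Treg) and 29.9 (naive). Only the si-RL-labelled library was apart from the others, by a log2 difference of -1.05 ± 0.20 from Treg. Rfc3, a subunit of the complex that opens the ring, had levels of 2.18 (si-Eos), 0.322 (si-RL), 0.728 (Treg) and 0.395 (naive) on its probe (chromosome 5, 151914051 to 151915849, mm8). It had the widest gap of all members between the hairpin libraries, 2.76 ± 0.21 or 6.78-fold, and lay on opposite sides of Treg in them. The other loader subunits, Rfc1, Rfc2, Rfc4 and Rfc5, were higher in the si-Eos-labelled library by 0.44 to 0.89, and none was 2-fold apart in any of the 4 comparisons.

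Of the single-strand binding proteins, which coat unwound DNA, the middle subunit gene Rpa2 followed the MCM genes and the others did not. Rpa2 had levels of 3.99 (si-Eos), 1.96 (si-RL), 3.30 (Treg) and 2.34 (naive), and its second probe differed between the hairpin libraries by 0.97, against 1.02 on the probe used. Rpa1, the large subunit, was highest in naive T cells, with 4.66 (si-Eos), 4.52 (si-RL), 5.73 (Treg) and 8.64 (naive). Rpa3, the small one, had 1.75 (si-Eos), 1.95 (si-RL), 2.47 (Treg) and 2.47 (naive). Neither Rpa1 nor Rpa3 was 2-fold apart in any of the 4 comparisons.

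Both genes that finish the lagging strand were among the widest differences. Lig1, the ligase that seals Okazaki fragments, had levels of 17.4 (si-Eos), 3.89 (si-RL), 8.45 (Treg) and 3.98 (naive) on its probe (chromosome 7, 12211439 to 12211497, mm8). The si-RL-labelled library was level with naive T cells, and the si-Eos-labelled library was above Treg by 1.04 ± 0.20. Fen1, the nuclease that trims the flaps before ligation, had levels of 2.53 (si-Eos), 0.755 (si-RL), 1.69 (Treg) and 1.12 (naive). Between the si-Eos-labelled and si-RL-labelled libraries the log2 differences were 2.16 ± 0.20 for Lig1 and 1.74 ± 0.20 for Fen1.

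All 5 genes for nucleotide supply were higher in Treg than in naive cells, and they parted in the si-RL-labelled library. Tyms, thymidylate synthase, had levels of 9.16 (si-Eos), 3.36 (si-RL), 7.63 (Treg) and 1.62 (naive), so that the si-RL-labelled library lay between Treg and naive T cells. A second bright Tyms probe differed between Treg and naive T cells by 2.16, against 2.23 on the probe used, and another, dim one by 0.35. Rrm2, the regulated subunit of ribonucleotide reductase, had levels of 3.096 (si-Eos), 3.29 (si-RL), 1.62 (Treg) and 0.247 (naive), so that both hairpin libraries lay above Treg. Their log2 differences from Treg were 0.93 ± 0.20 for the si-Eos-labelled library and 1.02 ± 0.20 for the si-RL-labelled library. Thus between the si-RL-labelled library and Treg, Tyms differed by -1.18 ± 0.20 and Rrm2 by 1.02 ± 0.20, although both feed DNA synthesis. Tk1, thymidine kinase of the salvage route, had levels of 3.01 (si-Eos), 1.61 (si-RL), 2.23 (Treg) and 0.397 (naive). Rrm1, the large reductase subunit, differed between Treg and naive T cells by 1.10 ± 0.20. Dut, which removes dUTP, differed by 0.67 ± 0.20.

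Chromatin genes that act at the fork were led by Chaf1a. Chaf1a, the large subunit of the histone chaperone CAF-1, had levels of 2.08 (si-Eos), 0.399 (si-RL), 0.845 (Treg) and 0.139 (naive) on its probe (chromosome 17, 55660839 to 55660898, mm8). Naive T cells were lowest, and the hairpin libraries lay on opposite sides of Treg, at 1.30 ± 0.20 and -1.08 ± 0.21 for the si-Eos-labelled and si-RL-labelled libraries. Its partner Chaf1b had levels of 5.44 (si-Eos), 4.32 (si-RL), 3.95 (Treg) and 3.02 (naive) and was not 2-fold apart in any of the 4 comparisons. Uhrf1, which guides the maintenance DNA methyltransferase to new DNA, had levels of 4.32 (si-Eos), 2.90 (si-RL), 2.79 (Treg) and 0.485 (naive). Uhrf1 differed between Treg and naive T cells by 2.52 ± 0.20, and its second probe by 2.42, while the si-RL-labelled library and Treg were within 0.06 of each other.

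Genes that govern entry into S phase did not follow one order. Cyclin E1, Ccne1, had levels of 7.01 (si-Eos), 3.096 (si-RL), 3.53 (Treg) and 2.26 (naive). Cyclin E2, Ccne2, had levels of 0.263 (si-Eos), 0.192 (si-RL) and 0.0724 (Treg), and was not well above background in naive T cells on this probe. Both hairpin libraries exceeded Treg in Ccne2, by 1.86 ± 0.24 and 1.41 ± 0.25 for those labelled si-Eos and si-RL, and by 2.03 and 1.49 on the other Ccne2 probe, which was above background on all arrays and differed by -0.06 between Treg and naive T cells. With normexp background correction these signs turned for the dim probe used, to -0.78 and -0.87. E2f1, an activating E2F factor, had levels of 0.508 (si-Eos), 0.281 (si-RL), 0.439 (Treg) and 0.0653 (naive). The log2 difference of 2.75 ± 0.24 between Treg and naive T cells was 0.44 on its second probe, so the size of the E2f1 difference depends on the probe. Between the si-RL-labelled library and Treg the second probe read 0.65, where the probe used read -0.64, so this direction is uncertain. Between the si-Eos-labelled library and Treg they read 1.39 and 0.21. E2f2, another activating factor, had levels of 3.97 (si-Eos), 7.47 (si-RL), 4.25 (Treg) and 2.39 (naive). It was the member furthest below 0 between the hairpin libraries, at -0.91 ± 0.20, with the si-RL-labelled library the highest of the 4 arrays.

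**Figure D3:**
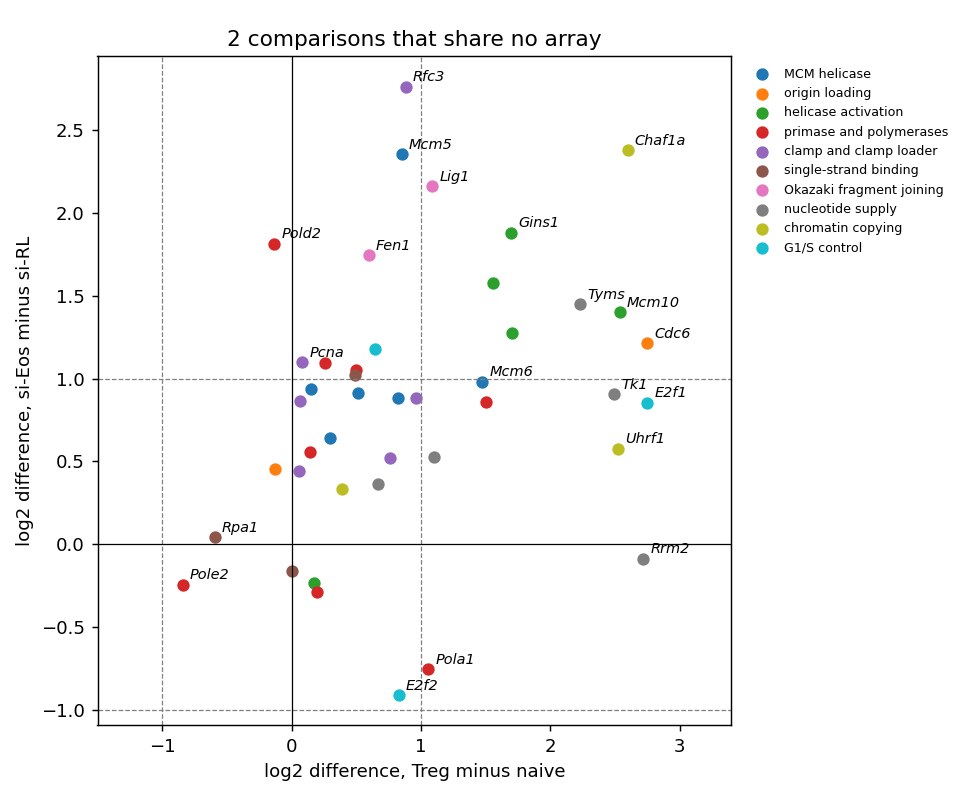
Log2 difference between Treg and naive T cells (horizontal axis) against that between the si-Eos-labelled and si-RL-labelled libraries (vertical axis) for the 43 genes measured in both, coloured by role, with dashed lines at 2-fold. The upper right corner holds 8 genes past 2-fold on both axes, while Rrm2 lies far right near 0 and Pold2 lies high near 0.

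Treg against naive T cells and the 2 hairpin libraries against each other share no array, so the members can be set side by side. At least 2-fold higher in both were 8 of 43 members (18.6%), against 2.38% of 16449 genes: Cdc6, Mcm10, Cdc45, Gins1, Gins2, Lig1, Tyms and Chaf1a. They are 8 of the 16 members at 2-fold between Treg and naive T cells and 8 of the 17 between the hairpin libraries. For Cdc6 this rests on the probe used, since its second probe read only 0.18 between the hairpin libraries. Past 2-fold only between Treg and naive T cells were Mcm6, Pola1, Pole, Rrm1, Rrm2, Tk1, Uhrf1 and E2f1. Past 2-fold only between the hairpin libraries were Mcm5, Prim2, Pold1, Pold2, Pcna, Rfc3, Rpa2, Fen1 and Ccne1. Across the 43 genes the 2 differences had Pearson's r = 0.29 and Spearman's rho = 0.35, against 0.38 and 0.24 across all 16449 genes. Genes of 1 library are not independent replicates. With the hairpin labels swapped, the sign of r would turn.

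Further replication genes, on a list of 42, differed less. Their median log2 difference was 0.47 between the si-Eos-labelled and si-RL-labelled libraries, 0.37 between the si-Eos-labelled library and Treg, -0.08 between the si-RL-labelled library and Treg, and 0.10 between Treg and naive T cells. Between the hairpin libraries 6 of 42 (14.3%) passed 2-fold upward and 1 (2.38%) downward, against 10.7% and 10.1% of all genes. Orc1, the large subunit of the origin recognition complex, was higher by 1.97 ± 0.24, and Timeless, which steadies the fork, by 1.82 ± 0.21. Dscc1, of an alternative clamp loader, was higher by 1.43 ± 0.20. The 1 gene below was Samhd1, an enzyme that breaks down nucleotides, at -1.34 ± 0.20. Timeless resembled Pcna and Pold2: its levels were 1.77 (si-Eos), 0.501 (si-RL), 1.71 (Treg) and 1.70 (naive), with the si-RL-labelled library alone apart. It was the 1 gene of 42 at least 2-fold lower in the si-RL-labelled library than in Treg, where none was 2-fold higher, and this 2.38% is below the 8.21% of all genes. Between Treg and naive T cells, 7 of 40 measured (17.5%) were at least 2-fold higher, against 5.51% of all genes. None was 2-fold lower, against 2.04%. The 7 include Dna2 (a nuclease and helicase, 1.998 ± 0.28) and Orc1 (1.76 ± 0.31), both dim in naive T cells.

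G1/S control genes outside the members were often higher in the hairpin libraries than in fresh Treg. Of 28 measured, 11 (39.3%, against 7.89% of all genes) were past 2-fold upward in the si-RL-labelled library and none downward, against 8.21%. In the si-Eos-labelled library 10 (35.7%, against 8.85%) were past it upward and 1 (3.57%, against 10.0%) downward. Between Treg and naive T cells 5 of 25 were past 2-fold upward and 1 downward, against 5.51% and 2.04% of all genes. The widest was Cdkn1a, the kinase inhibitor p21, with levels of 6.71 (si-Eos), 4.40 (si-RL), 0.0356 (Treg) and 0.0146 (naive). Cdkn1a was well above background in both hairpin libraries and in Treg but not in naive T cells. It was 189-fold higher in the si-Eos-labelled library than in Treg and 124-fold in the si-RL-labelled library, with errors of ± 0.32 on the log2 scale that reflect the dim Treg spot. Cdk6, a kinase that acts with D cyclins, had levels of 17.8 (si-Eos), 19.6 (si-RL), 3.93 (Treg) and 0.789 (naive). E2f7, a repressive E2F factor, was higher than Treg by 1.83 ± 0.22 in the si-Eos-labelled library and by 2.33 ± 0.22 in the si-RL-labelled library. E2f8, its close relative, was higher in the si-RL-labelled library than in Treg by 2.20 ± 0.23. Between the hairpin libraries 3 of 28 (10.7%) were at least 2-fold higher in the si-Eos-labelled library: Cdkn2b, Ccnd1 and the cyclin D2 gene Ccnd2. At least 2-fold lower were 2 (7.14%), Cdkn1c and E2f8. Of all genes, 10.7% were higher and 10.1% lower. The culture of 60 h, the virus and the sort go with the hairpin libraries, and their part in these values was not tested.

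**Figure D4:**
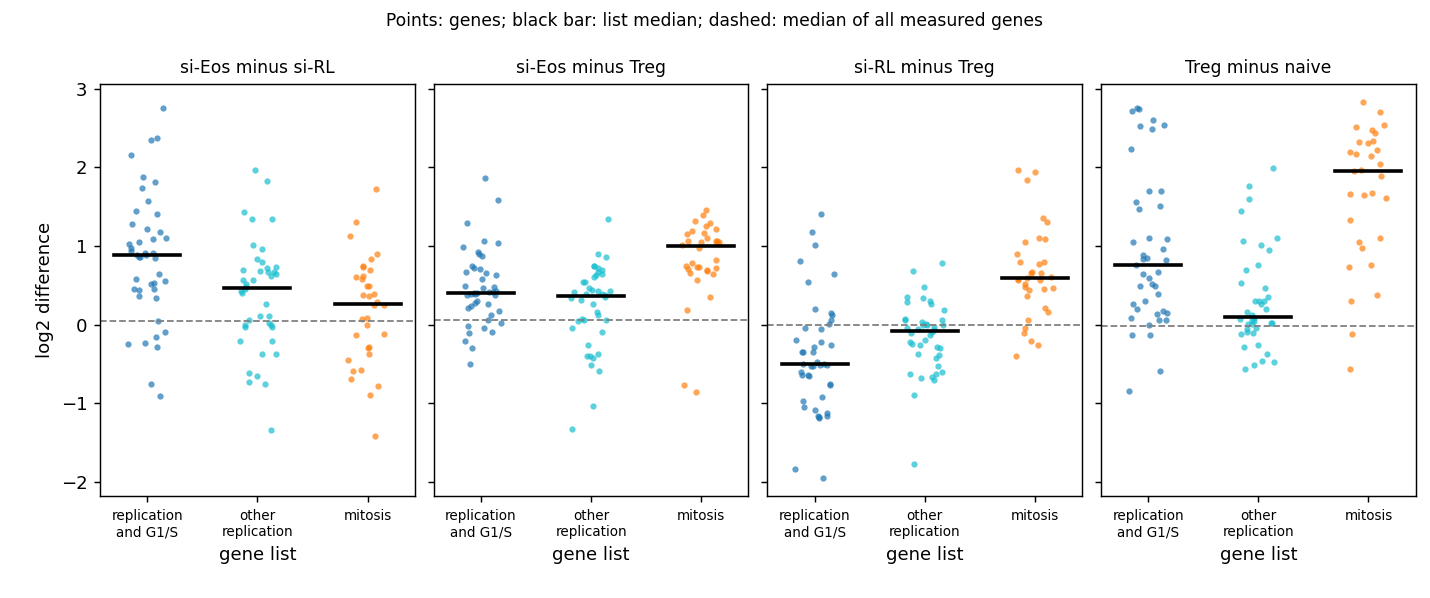
Log2 difference (vertical axis) of single genes (points) of 3 lists in 4 comparisons, with each list's median as a black bar and the median of all measured genes dashed. For si-RL minus Treg the replication and G1/S median is below 0 (-0.50) and the mitosis median above it (0.59).

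Mitosis genes, which act later in the cycle, gave other values in the hairpin libraries. In the si-RL-labelled library, 8 of 34 mitosis genes (23.5%) were at least 2-fold higher than in Treg, against 7.89% of all genes. None was 2-fold lower, against 8.21%. Their median log2 difference was 0.59, beside -0.50 for the replication genes. Ndc80, of the kinetochore, was among the widest, with levels of 1.29 (si-Eos), 1.93 (si-RL), 0.491 (Treg) and 0.195 (naive). The mitosis median lay above the replication median under each scaling and background correction tried for this comparison, at 0.38 against -0.09 under normexp, where the median of all genes was -0.31. Between the si-Eos-labelled and si-RL-labelled libraries the mitosis median was 0.27, beside 0.89 for the replication genes. Past 2-fold there were 3 of 34 upward (8.82%) and 1 downward (2.94%), against 10.7% and 10.1% of all genes. Cdk1, the mitotic kinase, was higher in the si-Eos-labelled library by 1.72 ± 0.21, while Cdc25b, a phosphatase that activates it, differed by -1.41 ± 0.20. Between the si-Eos-labelled library and Treg 17 of 34 (50%) were at least 2-fold higher, against 8.85% of all genes. None was 2-fold lower, against 10.0%. The mitosis median there was 0.997, beside 0.41 for the replication genes, but under normexp it was 0.67 beside 0.72. Between Treg and naive T cells the mitosis median was 1.96. In that comparison 24 of 31 (77.4%) were at least 2-fold higher, against 5.51% of all genes. With 1 array per group, the difference between the lists was not tested.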

How the data were processed

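RNA from 4 samples was labelled with Cy3 after linear amplification and hybridised to 1 array each, per the labels' protocols. Per the file headers, Agilent Feature Extraction 9.5.3.1 produced the deposited linear intensity of each spot, with background subtracted and trends removed, and no scaling between arrays. Probe positions are on build mm8. All 4 arrays shared 1 slide and 1 scan. The authors' deposited value table held the same processed intensity: 100% of its values lay within 0.5% of the scanner's. Control codes and flags (other columns) were used as deposited.

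From these values, log2 of the processed intensity minus the array's 75th percentile was computed over 41174 probes. Between 71 and 94 outlier spots per array were left out, no spot was saturated, and spots of 1 probe were averaged. Probes were named through a RefSeq table (GRCm38.p6) by accession, symbol or single synonym, and each gene took its brightest probe. Comparisons used genes that both arrays measured well above background, and counted those 2-fold or more apart. The counting was tested on simulated data. No test was run, since each group is 1 array, and this number limits the precision.

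Members and lists were chosen with earlier results of these data known. All members could be named. Full levels were given for the widest member of each role and for those on opposite sides in 2 comparisons, with others added where they show a contrast. Genes of the other lists were named from those at least 2-fold apart, up to 4 each way, and 1 of them is not reported here. For 7 alternatives (median, spike-in and quantile scaling, normexp with limma 3.58.1 and an offset of 50, all probes averaged, no background filter, the value table) the effect is given at the end. Python 3.11.15 and R 4.3.3 were used.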

Additional observations from a re-analysis of the deposited data

Results flagged for a closer look

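Rfc3, Lig1 and Chaf1a lay on opposite sides of Treg in the hairpin libraries, each by 2-fold or more, with the one labelled si-Eos above and the one labelled si-RL below. This difference was not tested. The gap between the si-Eos-labelled and si-RL-labelled libraries was 2.76 on the log2 scale for Rfc3, 2.16 for Lig1 and 2.38 for Chaf1a. Each of these genes has 1 probe on the array, and both gaps from Treg rest on the same Treg array.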

How the results depend on the processing

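Between the hairpin libraries, the count of replication genes at least 2-fold higher lay between 14 and 18 of 44 under the 7 alternatives. The share of all genes lay between 6.65% and 12.9%, and the members' median between 0.79 and 0.92. Other counts that moved by over 1.5 times, and medians that moved by more than the scanner error, are these. Treg against naive T cells had a median of 0.55 under median scaling, with 1 of 43 members lower, against 3.56% of all genes. The median was 1.02 under spike-in scaling. Under normexp it was 0.40, with 1 of 43 lower, against 2.10% of all genes. The si-RL-labelled library against Treg had a median of -0.85, with 1 member higher, under spike-in scaling, and of -0.092, with 2 lower, under normexp. The si-Eos-labelled library against Treg had 8 members higher under median scaling, a median of 0.0138 with 2 higher under spike-in scaling, and 0.72 with 8 higher under normexp. Ccne2 turned to -0.87 (si-RL) and -0.78 (si-Eos) against Treg under normexp. The median of all genes moved by over 0.1 as well: spike-in scaling put it at 0.25 for Treg against naive T cells, at -0.35 for the si-RL-labelled library and at -0.34 for the si-Eos-labelled library against Treg, and the members kept the same distance from it. Median scaling put it at -0.23 for Treg against naive T cells and 0.17 for the si-Eos-labelled library against Treg. Normexp put it at 0.21, -0.31 and -0.36 for Treg against naive T cells and for the si-RL-labelled and si-Eos-labelled libraries against Treg. The split of all genes at 2-fold moved with it: under spike-in scaling 683 were higher and 2749 lower between the si-RL-labelled library and Treg, and 823 higher and 3131 lower between the si-Eos-labelled library and Treg. Between Treg and naive T cells 771 were higher and 627 lower under median scaling, and 1429 higher and 208 lower under spike-in scaling. The cause of the normexp values was not tested. Over single members, 303 of 1225 values moved by more than their scanner error without turning a 2-fold difference, and 71 of 1225 changed sign, all but the 2 of Ccne2 from differences under 2-fold. No paired analysis was possible because each group is 1 array. Probes of 1 gene disagreed in sign for 1 to 2 of 13 or 14 second probes per comparison, which includes Cdc6 and E2f1. Signal near background limits Ccne2, Cdkn1a in Treg, and Cdc6, E2f1, Orc1 and Dna2 in naive T cells. It also limits Orc1, Cdkn2b and Ccnd1 in the si-RL-labelled library.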
